A study of Mus musculus with 16 samples.

Results

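The genes described here are 35 mouse genes of cholesterol and fatty acid synthesis that belong to, or are textbook targets of, the sterol regulatory element-binding protein (SREBP) system. They were listed by name from that pathway, with earlier results of these data known. They are 35 of the 23299 genes in the deposited table, and all 35 were among the 19042 genes high enough to be tested. By role they are 18 genes of sterol synthesis, 11 genes of fatty acid synthesis, and 6 genes of SREBP regulation and sterol transport. RNA came from whole tissue of the terminal ileum, the end of the small intestine, of C57BL/6 mice. Tas1r3-/- mice carry the Tas1r3tm1Csz knockout allele, backcrossed to C57BL/6, and lack the sweet and umami taste receptor subunit TAS1R3 in every tissue, and Tas1r3+/+ mice were their wild-type littermates. Young adult animals of both sexes received for 10 weeks a normal diet (ND) with plain water or a Western diet (WD), which combined a 60% high-fat pellet with 30% sucrose solution to drink. The labels give 4 mice per group, males 1 and 2 and females 1 and 2, and 16 columns in all, whereas the study's text gives a larger number of mice per group for the ileal transcriptome. Values of 13 libraries were used: 4 of Tas1r3+/+ on ND, 4 of Tas1r3+/+ on WD, 2 of Tas1r3-/- on ND and 3 of Tas1r3-/- on WD. In Tas1r3-/- mice on ND, both female columns equal weighted means of the male columns at every transcript of the 35 genes and were left out, so that group is all male. In Tas1r3-/- mice on WD, both female columns are arithmetically related and were averaged to 1 library, called the female value here.

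SREBPs are transcription factors that wait in the membrane of the endoplasmic reticulum, bound to their escort SCAP. When sterols run low, SCAP carries them to the Golgi, where proteases cut the active part free. When sterols are plentiful, INSIG proteins hold SCAP back and the synthesis genes are read less. SREBP-2, made from Srebf2, chiefly drives cholesterol synthesis, and SREBP-1, made from Srebf1, chiefly drives fatty acid synthesis and also responds to insulin. The intestine both absorbs dietary fat and cholesterol and makes its own.

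SREBPs bind sterol regulatory elements in promoters, usually beside boxes bound by the factor NF-Y. RefSeq promoter windows (GRCm38.p6, 250 bases before to 50 after each start) were found for 28 of the 35 genes, in 37 windows. Of these, 4 are shown, chosen by the responses described below. Hmgcs1 is an enzyme near the entry to the pathway whose diet groups overlapped. Mvk, Fasn and Srebf2 were lower in every WD than in every ND library of Tas1r3+/+ mice. Elovl5, the only member higher on WD in those mice, is not among them. Hmgcs1 lies at chr13:119690101-119690400 on the plus strand, Mvk at chr5:114444019-114444318 on the plus strand, Fasn at chr11:120824498-120824797 on the minus strand and Srebf2 at chr15:82147019-82147318 on the plus strand. Capitals mark the NF-Y box CCAAT or its reverse complement, and the sterol regulatory element TCACNCCAC.
Hmgcs1: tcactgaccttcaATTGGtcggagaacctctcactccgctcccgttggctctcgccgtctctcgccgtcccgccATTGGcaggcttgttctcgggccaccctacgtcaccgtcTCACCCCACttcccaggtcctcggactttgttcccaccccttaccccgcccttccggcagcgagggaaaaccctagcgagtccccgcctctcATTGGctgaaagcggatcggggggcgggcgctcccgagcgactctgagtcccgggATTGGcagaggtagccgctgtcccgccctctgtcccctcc
Mvk: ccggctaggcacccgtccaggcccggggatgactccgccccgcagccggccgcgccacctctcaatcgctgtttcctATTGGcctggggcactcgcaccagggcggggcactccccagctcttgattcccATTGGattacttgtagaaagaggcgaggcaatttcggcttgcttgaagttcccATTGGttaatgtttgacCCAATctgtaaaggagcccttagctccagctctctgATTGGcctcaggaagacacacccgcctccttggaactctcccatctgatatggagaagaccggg
Fasn: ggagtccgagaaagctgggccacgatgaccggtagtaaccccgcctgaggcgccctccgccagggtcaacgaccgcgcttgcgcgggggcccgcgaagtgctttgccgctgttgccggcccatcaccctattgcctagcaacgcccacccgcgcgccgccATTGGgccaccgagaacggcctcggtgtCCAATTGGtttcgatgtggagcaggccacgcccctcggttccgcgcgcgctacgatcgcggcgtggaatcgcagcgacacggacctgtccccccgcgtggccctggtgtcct
Srebf2: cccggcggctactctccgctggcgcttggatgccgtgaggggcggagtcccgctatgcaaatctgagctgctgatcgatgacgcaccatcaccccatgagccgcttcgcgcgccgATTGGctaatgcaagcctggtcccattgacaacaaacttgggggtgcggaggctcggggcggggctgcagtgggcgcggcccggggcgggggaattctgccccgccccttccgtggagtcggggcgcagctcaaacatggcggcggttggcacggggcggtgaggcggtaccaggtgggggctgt
In Hmgcs1 the element TCACCCCAC starts 137 bases before the start site, and 4 NF-Y boxes surround it. Mvk holds 5 NF-Y boxes, Srebf2 holds 1, and in Fasn the run CCAATTGG is 2 overlapping matches, 1 on each strand. Searched on both strands, TCACNCCAC was in 1 of the 37 windows and in 1.24% of 32851 windows of all genes, and its looser form TCACNNNAC, which includes it, was in 7 of 37 and in 11.2%. CCAAT was in 24 of 37 windows (64.9%) against 37.4% of all windows, and the GC box GGGCGG, bound by Sp1-type factors, in 73.0% against 35.7%. These matches are letters in a short window and say nothing of binding.

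The deposited values were taken as RPKM, a unit inferred from their form, since they are labelled as raw counts. Levels are given as scaled RPKM, the reads per kilobase and sequencing depth summed over a gene's transcripts and divided by a factor that brings most genes of the 13 libraries to a like level. The factor ran from 0.958 to 1.36 on ND and from 0.691 to 1.02 on WD, so the unscaled values differ between diets across most genes. The deposited columns summed to 817011 to 819992 on ND and to 542371 to 685274 on WD, and the cause was not tested. A difference in how the ND and WD values were produced cannot be told apart from diet. Differences are on the log2(scaled RPKM + 0.5) scale with a standard error (SE) from limma, and adjusted p-values are Benjamini-Hochberg values over all 19042 genes. Tas1r3 was at most 0.00529 scaled RPKM in Tas1r3-/- libraries and 1.54 to 6.665 in Tas1r3+/+ libraries. In 12 of the 13 libraries the values imply 7003285 to 12384353 reads, so that 1 read on a transcript of 1 kb is worth 0.0692 to 0.139 RPKM. In tissue RNA, fewer cells of a type and less RNA per cell cannot be told apart, and the labels do not say whether libraries of a group were prepared separately, so p-values measure the spread between these libraries.

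The tissue label was checked on marker genes. Ileal enterocyte markers (8 genes) summed to 1361 to 17140 scaled RPKM per library, smooth muscle markers to 1026 to 5324, crypt proliferation markers to 122 to 372, macrophage markers to 32.3 to 91.7, B cell markers to 5.16 to 65.4 and T cell markers to 3.24 to 19.6, while pancreatic acinar markers summed to at most 10.9.

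Averaged over the 13 libraries, Msmo1 (115 scaled RPKM), Fasn (112), Hmgcs1 (81.8) and Scd1 (80.7) were the highest of the 35 genes, and Me1 (7.42) and Acaca (4.60) the lowest. That order mixes groups with different levels. Fasn averaged 209 in Tas1r3+/+ mice on ND and 37.9 on WD, and Scd1 was the highest of the 35 genes, at 112, in WD-fed Tas1r3-/- mice but averaged 11.8 in WD-fed Tas1r3+/+ mice. These sums count every annotated transcript. The share on protein-coding transcripts was lowest for Ebp, at 9.24%. It was 19.2% for Fasn, 23.5% for Msmo1 and 27.0% for Srebf1, where short retained-intron or non-coding forms weigh heavily per kilobase.

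**Figure D1:**
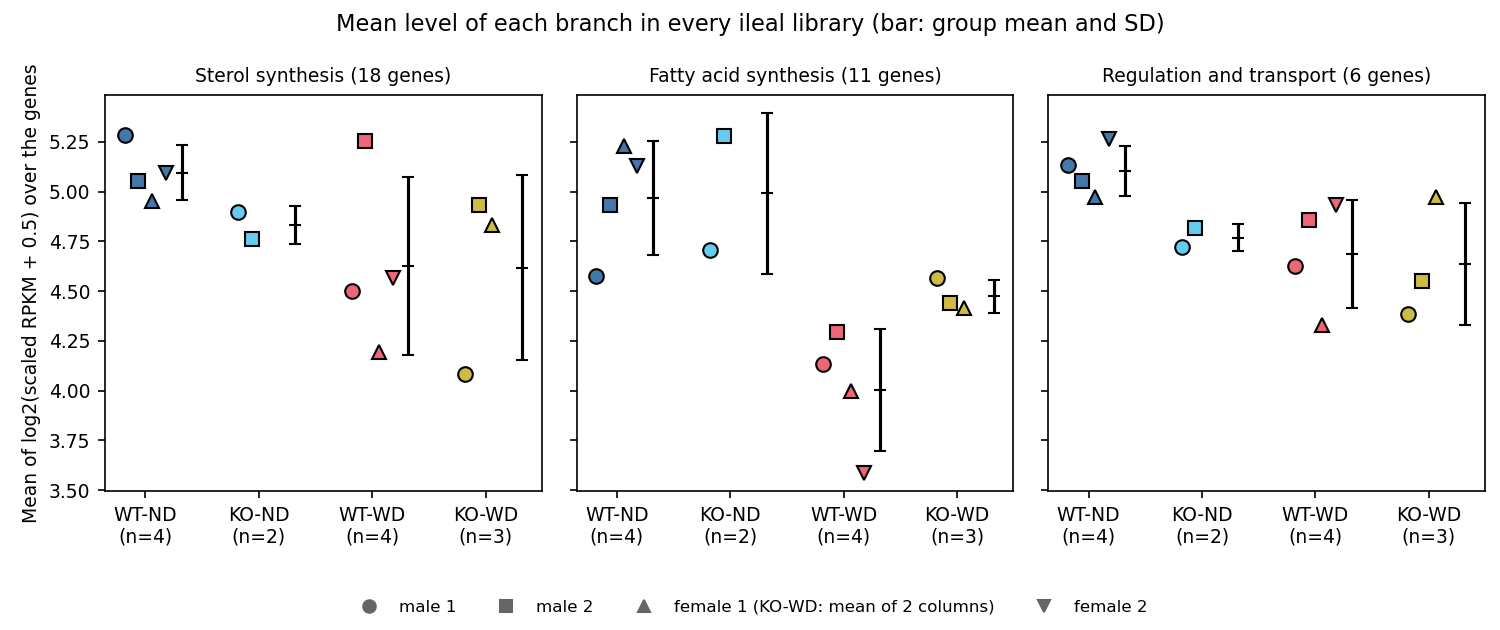
Mean of log2(scaled RPKM + 0.5) over the genes of each branch (y axis) in every library of the 4 groups (x axis: WT is Tas1r3+/+, KO is Tas1r3-/-), with the group mean and SD beside the points. For fatty acid synthesis, the WT-WD libraries, from 3.58 to 4.30, lay below all other libraries, and for sterol synthesis WT-WD male 2, at 5.25, lay among the WT-ND libraries.

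The comparison of WD with ND in Tas1r3+/+ mice sets the diet groups against each other in the presence of the receptor. Of the 35 genes, 34 were lower on WD, with a median difference of -0.55, where 47.0% of all genes tested were lower and the median was 0.03. All 18 sterol synthesis genes were lower (median -0.51), as were 10 of 11 fatty acid synthesis genes (median -0.91) and all 6 regulators (median -0.34). No member passed an adjusted p under 0.01 with a fold of at least 2, a rule that called 0.00525% of all genes, and none passed an adjusted p under 0.05, which called 0.063%. At an unadjusted p under 0.05, 17 of 35 were lower, against 8.09% of all genes. In 9 of 35 every WD library was below every ND library, against 5.96% of all genes (1135). The reverse held in 0 members and in 882 of all 19042 genes. The lowest adjusted p was 0.0573 (limma), for Fasn.

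Fatty acid synthesis genes differed most. Fasn, the fatty acid synthase, stood at 80.1, 197, 320.1 and 239 scaled RPKM in ND males 1 and 2 and females 1 and 2, and at 36.0, 55.4, 36.3 and 23.8 in the WD libraries in the same order. Every WD library was below every ND library, and male 1 was the lowest on ND. The difference was -2.35 (SE 0.41), or 5.08-fold lower, with an adjusted limma p of 0.0573 and an exact two-sided permutation p of 0.0286, the smallest that 4 against 4 libraries allow. All 5 deposited Fasn transcripts were lower on WD, among them the main protein-coding form of 8333 bases, at 34.4 ± 16.7 (SD, n = 4) on ND and 5.67 ± 3.56 on WD.

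Scd1, the stearoyl-CoA desaturase that makes monounsaturated fatty acids, was at 25.5, 159.6, 148 and 133 on ND and at 13.2, 5.37, 19.3 and 9.54 on WD. The groups did not overlap, although ND male 1 lay close to the WD values. Its difference was -3.09 (SE 0.60), 8.5-fold lower, with an adjusted limma p of 0.0704 and the same exact permutation p of 0.0286. By size of decrease it ranked 4 and Fasn 12 among the 19042 genes. Ranked 1 was Thrsp, a nuclear protein of lipogenic tissues that is no member and was singled out after its values were seen, at 10.4, 67.1, 124.1 and 90.2 on ND and 2.65, 1.65, 6.89 and 2.72 on WD.

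Acly, which makes cytosolic acetyl-CoA from citrate, was at 37.9, 47.3, 64.0 and 57.2 on ND and 29.0, 32.8, 22.5 and 14.2 on WD, a difference of -1.09 (SE 0.27). Acaca, the acetyl-CoA carboxylase of the committed step, was at 4.58, 6.45, 7.25 and 7.46 on ND and 3.04, 3.60, 2.52 and 2.25 on WD, a difference of -1.04 (SE 0.23). In both, every WD library was below every ND library, with adjusted limma p of 0.113 and 0.0943. Me1, the malic enzyme that supplies NADPH, was at 2.65, 10.2, 13.3 and 12.0 on ND and 3.46, 3.46, 3.77 and 1.95 on WD. Here ND male 1 lay among the WD libraries, and the difference was -1.29 (SE 0.39). Scd2, another stearoyl-CoA desaturase, was lower by a difference of -0.91 and Acss2, the acetyl-CoA synthetase, of -0.59, both at an unadjusted limma p under 0.05. The elongase Elovl6 (-0.37) and the desaturases Fads1 (-0.21) and Fads2 (-0.09) were lower by less than 2 SE, and the elongase Elovl5 was higher by 0.43 (limma, SE 0.20, adjusted p = 0.324).

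Adipocyte markers differed in the same libraries. The sum of 8 of them was 49.1, 274, 291 and 237 scaled RPKM in the ND libraries and 73.7, 42.6, 177 and 105 on WD, with ND male 1 again low. All 8 were lower on WD (median -1.52), and none was at 0 in any library. Of the 8, 5 were at an unadjusted limma p under 0.05, where 8.09% of all genes were lower by that rule. Their part in the fatty acid results was not tested. Without ND male 1 the difference was -2.75 for Fasn, -3.71 for Scd1 and -1.78 for Me1, and these 3 genes had an adjusted limma p of 0.0131. In the 2 males per diet alone the median of the fatty acid genes was -0.42.

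**Figure D2:**
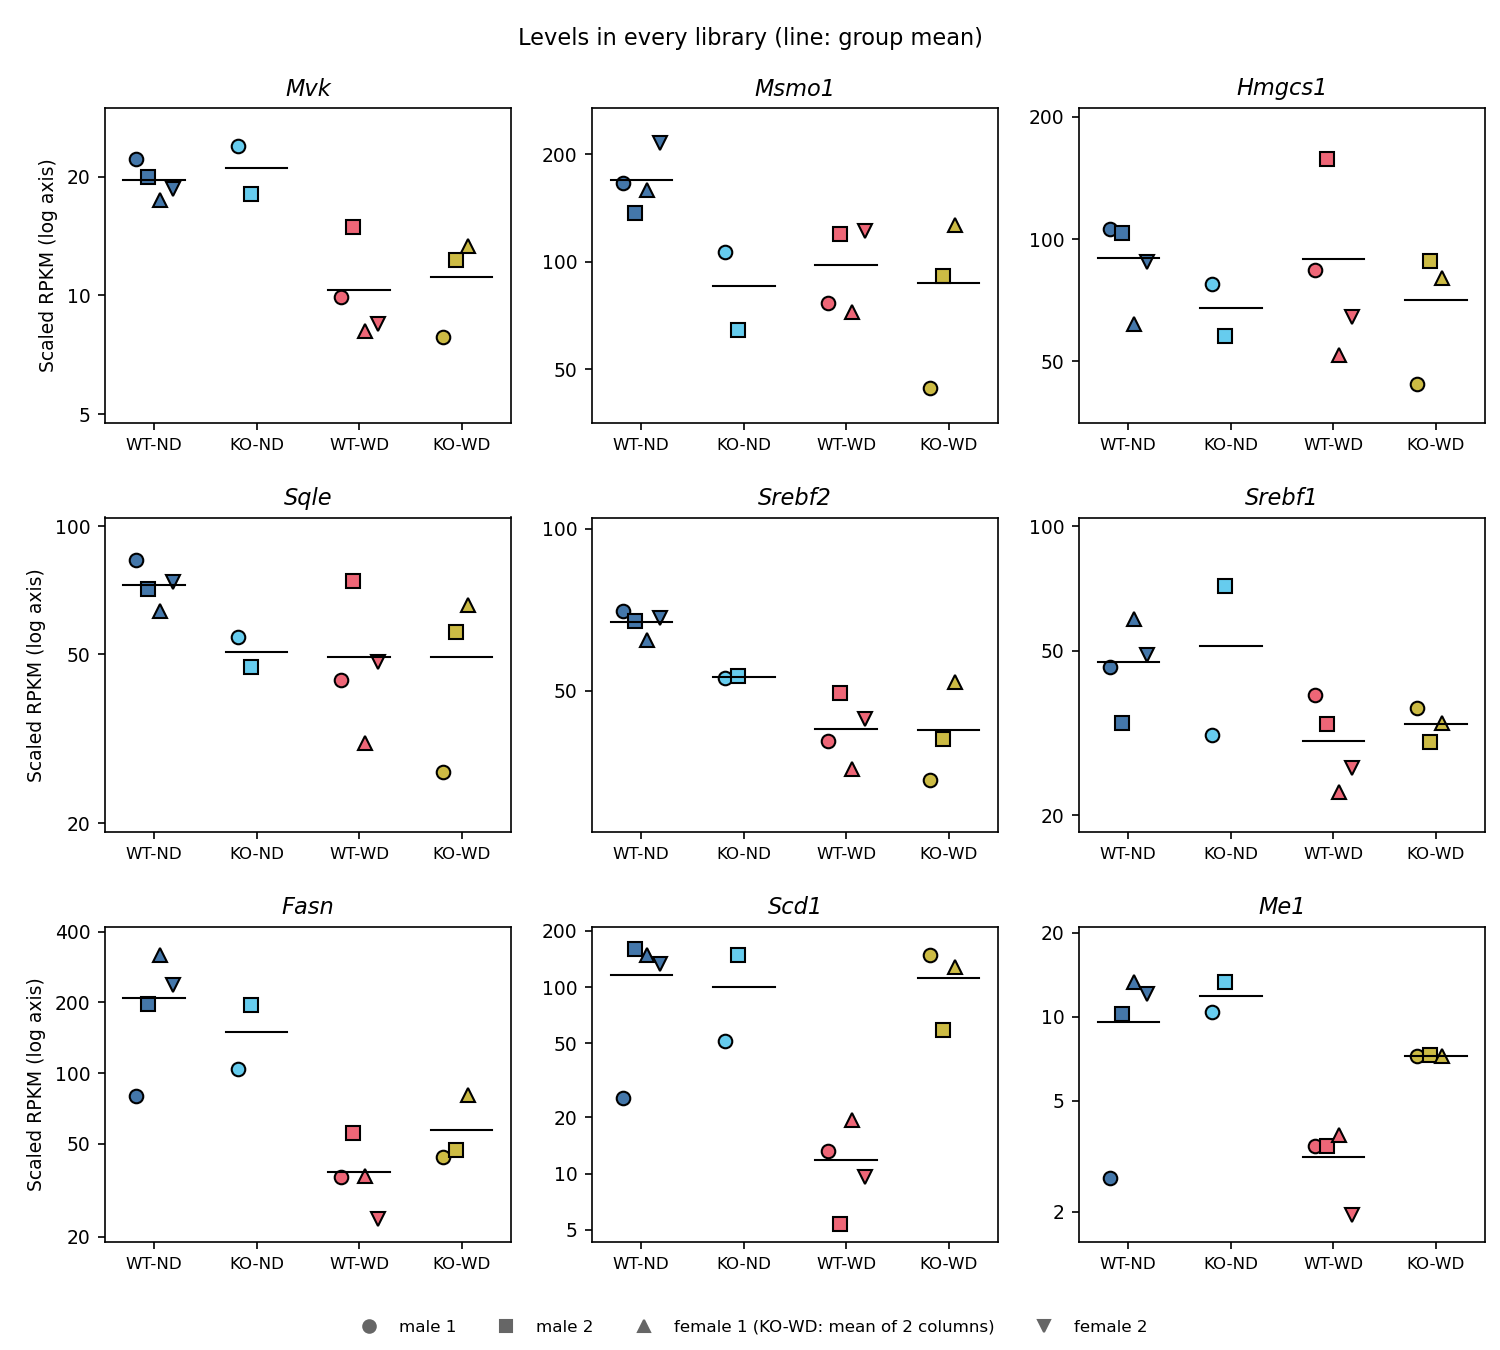
Scaled RPKM on a log axis in each library for 9 genes, by group (WT is Tas1r3+/+, KO is Tas1r3-/-), with a line at the group mean and the symbol giving sex and number. Fasn was lower in every WT-WD than in every WT-ND library, whereas Scd1 in KO-WD, at 58.9 to 148, stood above all WT-WD libraries.

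Sterol synthesis genes were lower by less, and unevenly along the pathway. Mvk, mevalonate kinase, was at 22.2, 20.0, 17.4 and 18.7 on ND and 9.90, 14.9, 8.11 and 8.45 on WD, with no overlap, a difference of -0.92 (SE 0.22) and an adjusted limma p of 0.108. Pmvk, the next kinase, was at 52.0, 44.7, 50.4 and 42.0 on ND and 24.3, 41.8, 27.7 and 22.5 on WD, again without overlap (-0.73, SE 0.23). Msmo1, a methylsterol oxidase late in the pathway, was at 167, 137, 159 and 215 on ND and 76.8, 119, 72.5 and 122 on WD (-0.81, SE 0.32). That gap lay in a non-coding Msmo1 form of 816 bases, at 74.6 ± 22.3 on ND and 14.5 ± 4.06 on WD, and in a short 342-base form. The protein-coding Msmo1 form of 2044 bases was at 19.8 ± 12.1 and 21.8 ± 9.30 (SD, n = 4 each), and on the highest Msmo1 transcript alone the difference was 0.07.

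Mvd, the decarboxylase that follows Mvk and Pmvk, was lower too (-0.67), at an unadjusted limma p under 0.05. Dhcr7 (-0.71), the last reductase, Acat2 (-0.55), the thiolase at the start, and Hsd17b7 (-0.68), a sterol ketone reductase, were also lower at that p, though with overlap. Of 25 alternatives in processing or in libraries left out, Dhcr7 kept that p in 24, Acat2 in 15 and Hsd17b7 in 12. The Hsd17b7 difference ran from -1.14 to -0.21 over them. Hmgcs1, the synthase upstream of Mvk, was at 106, 104, 62.0 and 87.8 on ND and 83.8, 157, 51.8 and 64.4 on WD, a difference of -0.11 (SE 0.34) with the diets overlapping throughout. Sqle, the squalene epoxidase, was at 83.2, 71.3, 63.4 and 73.9 on ND and 43.4, 74.4, 30.9 and 48.0 on WD (-0.63, SE 0.30, exact permutation p = 0.114). The other 9 genes had differences from -0.71 (Lss, which closes the sterol rings) to -0.08 (Sc5d), none at an unadjusted limma p under 0.05. Sc5d is a sterol desaturase near the end of the pathway. Between these lay the sterol isomerase Ebp (-0.47), the sterol reductase Tm7sf2 (-0.42), the farnesyl diphosphate synthase Fdps (-0.37) and the lanosterol demethylase Cyp51 (-0.18). Also between them lay the sterol dehydrogenase Nsdhl (-0.15), the squalene synthase Fdft1 (-0.13) and the isopentenyl diphosphate isomerase Idi1 (-0.09). Only 9.24% of the summed Ebp level was on protein-coding transcripts, so the Ebp difference rests mostly on other forms.

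WD male 2 was the highest of its group for 14 of the 18 sterol genes and WD female 1 the lowest for 13. The branch mean was 5.28, 5.05, 4.95 and 5.09 on the log2 scale on ND and 4.50, 5.25, 4.19 and 4.56 on WD, so that WD male 2 sat among the ND libraries. Crypt proliferation markers (7 genes) summed to 257, 372, 130 and 196 in the same WD libraries, male 2 again the highest and female 1 the lowest, and their part in the result was not tested. Without WD female 1 the count of members at an unadjusted limma p under 0.05 was 10 in place of 17.

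Among the regulators, Srebf2 differed most clearly. It was at 70.4, 67.4, 62.3 and 68.3 on ND and 40.3, 49.5, 35.8 and 44.4 on WD, without overlap, with a difference of -0.66 (SE 0.16) and an adjusted limma p of 0.11. Scap was at 15.0, 12.6, 12.4 and 13.7 on ND and 10.4, 10.5, 10.7 and 10.8 on WD, a small difference of -0.32 (SE 0.14) without overlap. Srebf1 was at 45.6, 33.4, 59.7 and 48.8 on ND and 39.0, 33.3, 22.7 and 26.1 on WD, a difference of -0.62 (SE 0.27) with male 2 of each diet nearly equal. Insig1, itself an SREBP target, was at 30.5, 36.5, 27.5 and 33.0 on ND and 28.0, 40.7, 15.2 and 23.8 on WD (-0.32, SE 0.26). Insig2 was at 22.0, 17.0, 21.7 and 30.2 on ND and 11.8, 11.8, 12.9 and 47.3 on WD, where female 2 stood apart from the other WD libraries (-0.36, SE 0.40). Stard4, a carrier of cholesterol between membranes, differed by -0.22.

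**Figure D3:**
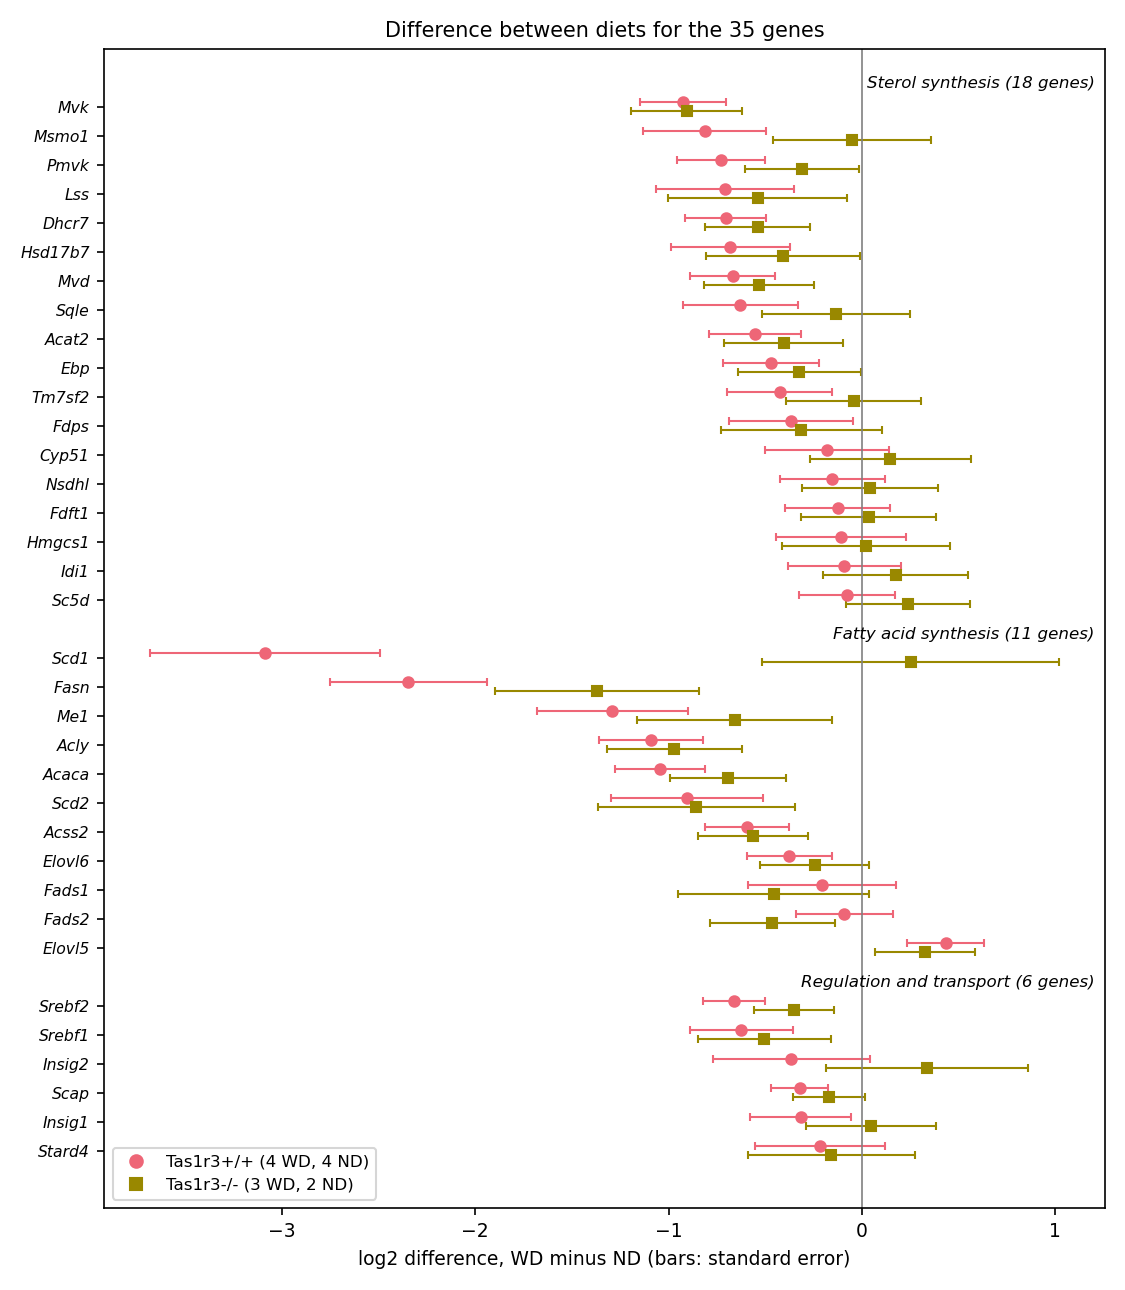
Difference between diets on the log2 scale (x axis, WD minus ND) for the 35 genes by branch (y axis), as circles for Tas1r3+/+ and squares for Tas1r3-/- mice, with bars of 1 standard error. In Tas1r3+/+ mice 34 of 35 points lay below 0, Scd1 (-3.09) and Fasn (-2.35) lowest, and in Tas1r3-/- mice Scd1 lay at 0.25.

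The same diet comparison in Tas1r3-/- mice rests on 2 male ND libraries and 3 WD libraries, where the smallest exact permutation p is 0.1. The WD libraries include the female value, so diet and sex are partly mixed. Lower on WD were 25 of 35 members, with a median difference of -0.31, against 50.6% of all genes and a median of -0.01. By branch, 12 of 18 sterol genes (median -0.22), 9 of 11 fatty acid genes (-0.56) and 4 of 6 regulators (-0.16) were lower. None passed an adjusted p under 0.05, which called 0.00525% of all genes, and the rule with a fold of at least 2 called 0% of them. In 12 members every WD library was below every ND library, against 10.5% of all genes (1995). The reverse held in 0 members and in 1991 of all 19042 genes. At an unadjusted p under 0.05, 4 members were lower against 2.94% of all genes.

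Those 4 were Mvk, Acly, Fasn and Acaca. Mvk was at 23.9 and 18.1 on ND and 7.83, 12.3 and 13.3 on WD, a difference of -0.91 (limma, SE 0.29, adjusted p = 0.795). Acly was at 36.5 and 62.2 on ND and 26.7, 25.4 and 20.5 on WD (-0.97, SE 0.35). Fasn was at 104.5 and 195 on ND and 43.7, 47.1 and 80.6 on WD (-1.37, SE 0.53), and Acaca at 4.35 and 7.86 on ND and 3.55, 2.81 and 4.08 on WD (-0.69, SE 0.30). In each of the 4 the WD libraries were all below the ND libraries. ND male 1 was the lower of the 2 ND libraries for 11 of 11 fatty acid genes, and without ND male 2 only 1 member, Mvk, was at an unadjusted limma p under 0.05. All 8 adipocyte markers were lower on WD here too (median -0.47), none at that p, and their part in the result was not tested.

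Scd1 was not among them in Tas1r3-/- mice. It was at 51.2 and 148 on ND and at 148, 58.9 and 129 on WD, overlapping, with a difference of 0.25 (SE 0.77). Srebf2 was at 52.9 and 53.4 on ND and 34.1, 40.7 and 51.9 on WD (-0.35, SE 0.21), and Srebf1 at 31.2 and 71.6 against 36.4, 30.1 and 33.5 (-0.51, SE 0.34). Pmvk was at 37.7 and 40.9 on ND and 23.3, 45.0 and 29.8 on WD, and Scap at 12.96 and 16.3 against 14.3, 10.9 and 13.6. Both overlapped between the diets. Me1 was at 10.4 and 13.3 on ND and at 7.23, 7.33 and 7.25 on WD, without overlap. WD male 1 was the lowest of its group for 17 of 18 sterol genes, and without it the sterol median was 0.11. In WD male 1, WD male 2 and the WD female value, Msmo1 was at 44.3, 90.99 and 126. Hmgcs1 was at 44.1, 88.3 and 80.1 and Sqle at 26.4, 56.5 and 65.1 in the same order. Male 1 was also the lowest for the regulators Insig1 (18.5, 26.5 and 28.5) and Insig2 (9.69, 10.6 and 20.5). That library also had the lowest mean log2 level of 8 ileal enterocyte markers, 6.30, against 7.66 and 8.92 in the other WD-fed Tas1r3-/- libraries. It had the highest smooth muscle marker sum of the 13 libraries, 5324, against 2885 and 1358 in those libraries, and the part of either cell type in the result was not tested.

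On ND, the comparison of Tas1r3-/- with Tas1r3+/+ mice sets 2 male libraries against 4 of both sexes, so sex and genotype are partly mixed. Members were lower in 26 of 35 cases (median -0.13), against 48.5% of all genes with a median of 0.02. Sterol genes were lower in 15 of 18 cases (median -0.26), fatty acid genes in 7 of 11 (-0.09) and regulators in 4 of 6 (-0.31). No adjusted p was under 0.05, a rule that called 0.00525% of all genes, and the rule with a fold called 0%. Msmo1 and Insig2 had an unadjusted p under 0.05, where 2.67% of all genes were lower by that rule. In 8 members every Tas1r3-/- library was below every Tas1r3+/+ library, as in 13.6% of all genes (2582). The reverse held in 0 members and in 1681 of all 19042 genes.

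Msmo1 was at 106 and 64.4 in Tas1r3-/- mice on ND, below all 4 Tas1r3+/+ libraries given above, a difference of -1.01 (SE 0.39, adjusted limma p = 0.891, exact permutation p = 0.0667, the smallest 2 against 4 libraries allow). Its 816-base non-coding form was at 28.3 there. Insig2 was at 10.8 and 9.32, below the lowest Tas1r3+/+ value of 17.0 (-1.11, SE 0.50). Without overlap but with an unadjusted p above 0.05 were, among others, Sqle at 54.8 and 46.5 (-0.52, SE 0.36), Insig1 at 26.8 and 20.3 (-0.43, SE 0.32), Srebf2 (-0.33, SE 0.20) and Hsd17b7 at 8.43 and 8.07 (-0.77, SE 0.38). Hmgcs1 was at 77.5 and 57.7 and overlapped. All 8 enterocyte markers were lower in these Tas1r3-/- libraries too (median -0.98), none at an unadjusted limma p under 0.05. Crypt proliferation markers were higher in 6 of 7 cases (median 0.50, 2 at that p) and smooth muscle markers in 6 of 6 (median 0.66, none at that p). The part of these cells in the sterol differences was not tested. With sex as a covariate neither Msmo1 nor Insig2 kept an unadjusted limma p under 0.05.

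**Figure D4:**
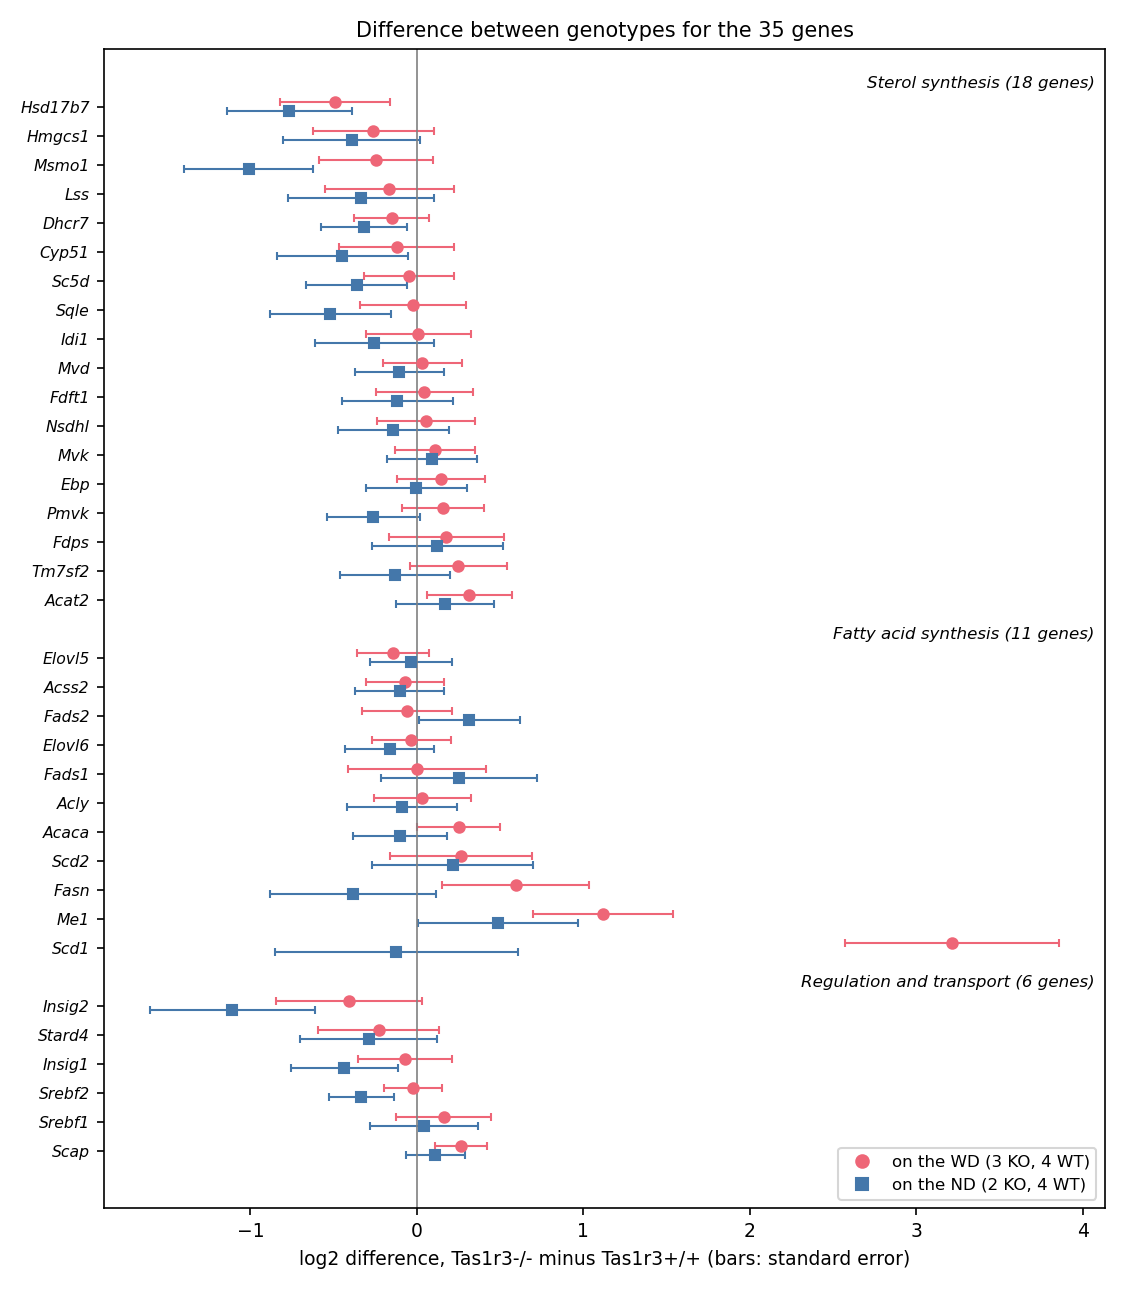
Difference between genotypes on the log2 scale (x axis, Tas1r3-/- minus Tas1r3+/+) for the 35 genes by branch (y axis), as circles on WD and squares on ND, with bars of 1 standard error. On WD, Scd1 (3.22) and Me1 (1.12) stood to the right of the other genes, and on ND, Insig2 (-1.11) and Msmo1 (-1.01) to the left.

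On WD, the comparison of the genotypes asks whether the receptor matters under the diet. Lower in Tas1r3-/- mice were 16 of 35 members (median 0.01), against 55.6% of all genes (median -0.04), and the branch medians were 0.02 for sterol synthesis, 0.03 for fatty acid synthesis and -0.05 for the regulators. The mean over the 11 fatty acid genes was 4.42 to 4.57 on the log2 scale in Tas1r3-/- and 3.58 to 4.30 in Tas1r3+/+ libraries, without overlap and 0.47 higher. Without Scd1 it was 4.16 to 4.30 against 3.61 to 4.47, overlapping and 0.20 higher. No member passed either rule, which called 0.0105% and 0.0263% of all genes. In 3 members every Tas1r3-/- library was above every Tas1r3+/+ library, against 1.38% of all genes (262). The reverse held in 0 members and in 286 of all 19042 genes. At an unadjusted p under 0.05, 2 members were higher against 1.41% of all genes.

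Scd1 and Me1 were those 2. Scd1 in WD-fed Tas1r3-/- mice, at 148, 58.9 and 129, was above all 4 Tas1r3+/+ libraries on WD, of which the highest was 19.3. The difference was 3.22 (SE 0.64), 9.3-fold higher, with an unadjusted limma p of 0.000273, an adjusted p of 0.371 and an exact permutation p of 0.0286, the smallest for 3 against 4. By size of increase it ranked 2 among the 19042 genes. Me1 was at 7.23, 7.33 and 7.25 against at most 3.77 in Tas1r3+/+ mice (1.12, limma, SE 0.42, adjusted p = 1). Scap did not overlap either (0.27, SE 0.16). Fasn was at 43.7, 47.1 and 80.6 against 23.8 to 55.4 and overlapped (0.59, SE 0.44), and Acly, at 20.5 to 26.7, lay within the Tas1r3+/+ range (0.03, SE 0.29).

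The deposited entries of Scd1 in WD-fed Tas1r3-/- male 2 and of the higher of 2 Me1 transcripts in male 1 are written with more than 6 digits. That holds for 169 of 770354 values in the columns used, counted without the second female column of WD-fed Tas1r3-/- mice. Such entries numbered 23 to 28 in each WD-fed Tas1r3-/- column counted, 8 to 30 on WD in Tas1r3+/+ mice and 0 to 8 on ND, and how they came about was not tested. Without WD-fed Tas1r3-/- male 2 the Scd1 difference was 3.67. Without the transcript concerned, the Me1 difference on WD was 0.41, with an unadjusted limma p above 0.05. Adipocyte markers summed to 101, 45.3 and 289 in WD-fed Tas1r3-/- mice and overlapped the Tas1r3+/+ range of 42.6 to 177. They were higher in Tas1r3-/- mice in 6 of 8 cases (median 0.45), none at an unadjusted limma p under 0.05. Those sums are of male 1, male 2 and the female value, where Scd1 was at 148, 58.9 and 129. Enterocyte markers were lower in 8 of 8 cases (median -0.65) and macrophage markers in 4 of 4 (median -0.53), 2 of each at that p. Their sums overlapped between the genotypes, and the part of any of these cells was not tested.

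The difference between the diet effects of the genotypes was tested as an interaction. The difference of WD from ND was higher in Tas1r3-/- than in Tas1r3+/+ mice for 32 of 35 members and for 8934 of all 19042 genes. The median was 0.17 for the members against -0.03 over all genes. The Tas1r3-/- side again rests on 2 male ND libraries, so diet and sex are partly mixed here too. No gene of the 19042 passed either adjusted rule (0%), and 273 had an unadjusted limma p under 0.05 in either direction. Scd1, at 3.34 (limma, SE 0.97, adjusted p = 1), was the only member at an unadjusted p under 0.05, where 0.62% of all genes were above 0 by that rule. Fasn followed with 0.98 (SE 0.66), Msmo1 with 0.76 (SE 0.52) and Insig2 with 0.70 (SE 0.66), each within 2 SE. The comparisons share libraries, so the interaction is no separate evidence for the differences above. Without WD-fed Tas1r3-/- male 1 the sterol median of the interaction was 0.52 in place of 0.18.

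**Figure D5:**
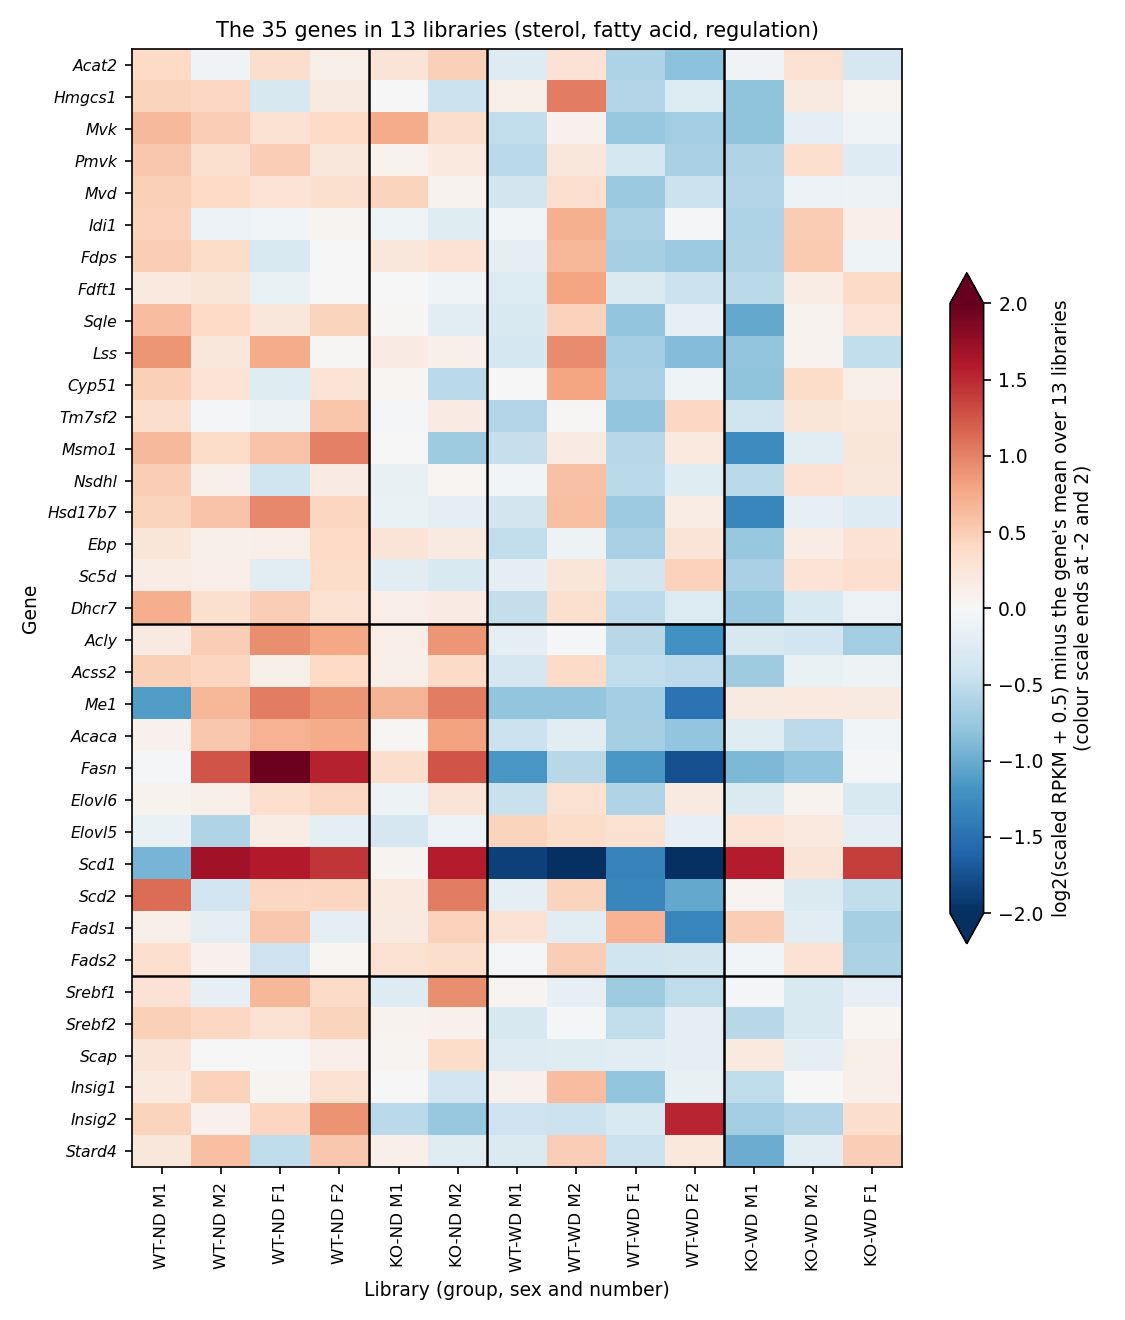
Level of each of the 35 genes (rows) in each of the 13 libraries (columns, WT is Tas1r3+/+, KO is Tas1r3-/-, M male and F female) as log2(scaled RPKM + 0.5) minus the gene's mean, red above and blue below it, with the colour scale ending at -2 and 2. KO-WD male 1 is blue over the sterol genes, being the lowest of its group for 17 of 18, and Scd1 is darkest blue in the WT-WD columns.

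Of 35 further genes of the pathway, 33 were tested and none passed an adjusted p under 0.05 in any comparison. On WD in Tas1r3+/+ mice, 7 of 9 other sterol and isoprenoid genes were lower (median -0.26). At an unadjusted limma p under 0.05, 4 of the 9 were lower, against 8.09% of all genes, and 2 were higher, against 7.5%. The higher ones, named after their values were seen, were the geranylgeranyl diphosphate synthase Ggps1 (0.64) and Nus1 (0.31), which serves dolichol synthesis. Lower were also 14 of 17 other fatty acid and NADPH genes (median -0.48, 7 of them at that p, against the same 8.09%) and 5 of 7 genes of SREBP processing (median -0.07, none at that p). In Tas1r3-/- mice the corresponding counts were 7 of 9, 14 of 17 and 3 of 7, with medians of -0.19, -0.33 and 0.08.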

How the data were processed

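Ileal RNA was sequenced from libraries made with poly-A selection, rRNA depletion and an Ion Total RNA kit. The deposited table is labelled as raw counts but holds values per transcript that are not whole, from the authors' alignments to mm10 (the submitters' notes name Partek). They were taken as RPKM, a unit inferred from their form that no label of the deposited table states. ND columns sum higher than WD columns, so library factors were recomputed by a trimmed mean (30% of ratios and 5% of levels). Transcript values were summed per gene, and genes were kept that reached 1 RPKM in 2 or more of the 13 libraries (19042 of 23299). Values were tested as log2(scaled RPKM + 0.5) in limma 3.58.1 (R 4.3.3) with a mean-variance trend, 4 groups in 1 fit and no other covariate, with Benjamini-Hochberg adjustment. Call rules were a fold of 2 or more with the adjusted p below 0.01, and an adjusted p below 0.05 with no fold limit. Single genes were also tested by exact two-sided permutation over libraries. The fit was also run on simulated data, and no conclusion is drawn from that run here. Read numbers were inferred from the smallest steps of the deposited values.

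Members, branches and marker lists were chosen with earlier results of these data known. All 35 members are named. Values in every library are given for the up to 3 members per branch and comparison with the largest difference at an unadjusted p under 0.05, and always for Srebf1, Srebf2, Insig1, Hmgcs1, Sqle, Fasn and Scd1. In Tas1r3-/- mice, both female ND columns were dropped as weighted means of the males except at 17 and 18 of 59258 transcripts, none of them in a member, and both female WD columns were averaged. Whether replicate numbers pair the samples was examined on 16 same-number pairs, whose correlations of deviations ran from -0.198 to 0.568, with 7 over 0.1. Pairs of different numbers were not set beside them, so these values cannot decide it. The main fit did not take the numbers as a pairing, and a replicate block was an alternative. Counting protein-coding transcripts only and weighting transcripts by length were alternatives chosen after seeing the data. Promoter windows came from RefSeq.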

Additional observations from a re-analysis of the deposited data

Results flagged for a closer look

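Among 70 gene-and-group sets of 4 libraries examined for a single distant library, 5 had one, where chance alone gives about 1 in 20. Scd1 in Tas1r3+/+ male 1 on ND was 25.5 scaled RPKM, against 133 to 160 in the other ND libraries, and Me1 in the same library was 2.65, against 10.2 to 13.3. That library also had the lowest adipocyte marker sum of its group, 49.1, and the part of those markers was not tested. On WD, Me1 in Tas1r3+/+ female 2 was 1.95, against 3.46 to 3.77 in the other libraries. Insig2 in the same library was 47.3, against 11.8 to 12.9, and that library had the highest enterocyte marker sum of its group, 17142. Fdft1, the squalene synthase, was 44.6 in Tas1r3+/+ male 2 on WD, against 18.8 to 21.2 in the rest.

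The effect of the diet on Scd1 differed between genotypes by 3.34 on the log2 scale (limma, SE 0.97, adjusted p = 1), with an unadjusted p under 0.05. All 4 WD libraries were below all 4 ND libraries in Tas1r3+/+ mice, and the diets overlapped in Tas1r3-/- mice. With the males alone the same interaction was 2.94, with an unadjusted limma p above 0.05.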

How the results depend on the processing

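Of 26 differences of single genes at an unadjusted p under 0.05, males alone left 10 at that p, the highest transcript 18 (1 of the others turned direction), upper quartile scaling 20 and no scaling 25. Without scaling the median of all genes was -0.38 for WD against ND in Tas1r3+/+ mice and -0.35 in Tas1r3-/- mice, and -0.14 and -0.12 for the genotypes on ND and WD. Unscaled, the Tas1r3+/+ diet comparison had 6 members called, 21 at an adjusted p under 0.05 and 27 at an unadjusted p under 0.05 (0, 0 and 17 with scaling), where 2.83%, 18.1% and 32.8% of all genes passed, with medians of -0.98 for sterol, -1.38 for fatty acid and -0.81 for regulation genes. In Tas1r3-/- mice the unscaled count at an unadjusted p was 12 (14.8% of all genes), with medians of -0.61, -0.95 and -0.55, on ND between genotypes it was 4 (9.0%), with medians of -0.43 (sterol) and -0.49 (regulation), and on WD it was 1 (2.72%). With all 16 columns as labelled, which counts derived columns as animals, the Tas1r3+/+ diet comparison had 1 member called (0.173% of all genes) and 6 at an adjusted p under 0.05 (3.28%), the Tas1r3-/- diet comparison 2 at an adjusted (1.86%) and 10 at an unadjusted p (17.8%), the genotypes 4 at an unadjusted p on ND (14.6%) and 1 (Scd1) at an adjusted p on WD (0.0891%), and the interaction 2 at an unadjusted p (5.93%). For the Tas1r3+/+ diet comparison, members at an adjusted p under 0.05 were 1 with a mean RPKM of at least 5 (Fasn), 2 with sex as a covariate (Fasn and Scd1) and 2 on the highest transcript (Pmvk and Fasn). Males alone gave 6 members at an unadjusted p under 0.05 and a fatty acid median of -0.42, and leaving out the transcripts with long-digit entries, which drops Scd1, gave a median of -0.61. On the highest transcript the Tas1r3-/- diet count was 2 (4 in the main fit) and the interaction count 2 (1), and the Msmo1 diet difference in Tas1r3+/+ mice turned to 0.072, the 816-base form then being left out. Between genotypes on ND the count of 2 became 0 with sex as a covariate, with the replicate block, on the highest transcript and on protein-coding transcripts (sterol median -0.14), 1 with males alone (regulation median -0.42) and with length-weighted transcripts, and 4 with those groups alone. On WD it was 1 with males alone and 0 without long-digit transcripts, where the interaction count was also 0. With males alone the interaction medians were -0.23 for fatty acid and 0.0060 for regulation genes. The cause of the other shifts was not tested.

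With 1 library left out at a time, members at an adjusted p under 0.05 numbered 0 to 3 in the Tas1r3+/+ diet comparison (3 without ND male 1) and 0 in the others. At an unadjusted p the counts were 10 to 21 for diet in Tas1r3+/+ mice, 1 to 5 in Tas1r3-/- mice (1 without ND male 2, 2 without WD male 1 or 2), 0 to 2 between genotypes on ND (0 without Tas1r3+/+ female 2 or Tas1r3-/- male 2), 2 to 3 on WD and 1 to 3 for the interaction (3 without Tas1r3+/+ ND male 1 or Tas1r3-/- WD male 1). Medians for sterol, fatty acid and regulation genes ran from -0.72 to -0.39, -1.15 to -0.65 and -0.48 to -0.28 for diet in Tas1r3+/+ mice, and from -0.34 to 0.11, -0.68 to -0.44 and -0.34 to 0.04 in Tas1r3-/- mice. Between genotypes they ran from -0.29 to -0.16, -0.23 to 0.30 (without Tas1r3-/- male 1) and -0.43 to -0.24 on ND, and from -0.15 to 0.37, 0.02 to 0.24 and -0.20 to 0.17 on WD. For the interaction they ran from 0.055 to 0.52, -0.057 to 0.47 and 0.14 to 0.50. The replicate block gave 15 members at an unadjusted p for diet in Tas1r3+/+ mice and moved no other call than those on ND. Scd1 between genotypes on WD ran from 2.91 to 3.67 over all alternatives that keep it. Depth limits the lowest values most, 1 read on a transcript of 1 kb being worth 0.0692 to 0.139 unscaled RPKM in 12 of the libraries.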

Other observations

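Over the 13 libraries, the non-members whose log2 level followed the mean of the sterol genes most closely were Arhgap21 (Pearson r = 0.94), Pfkfb2 (0.94) and Acpp (0.94). For the fatty acid genes they were Cdo1 (0.93), Cog7 (0.92) and Mrps11 (0.90). These are descriptions over libraries that share diet groups and library factors, and they carry no test. The scaled level of Thrsp in Tas1r3-/- mice was 24.5 and 74.8 on ND and 4.60, 1.78 and 22.3 on WD.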
